A study of Homo sapiens with 4 samples.

Results

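LIN28A, the chromatin protein gene HMGA2, the D-type cyclin gene CCND2 and 5 let-7 microRNA precursor genes were described on arrays of the parental Hap1 line and of a Baz2B-KO line. These 8 genes, of 14884 genes named on the array, are covered by 9 probe sets, since CCND2 has 2. They were selected on measured values of these same arrays, in that the log2 differences between the lines, above all the fall of LIN28A in Baz2B-KO, were known when the names were listed. The difference between the lines is therefore given for them as a description, without a test of their own, and calls from the fit over all probe sets are only counted. Hap1 is a near-haploid, adherent human line of chronic myelogenous leukaemia origin. The Hap1 parental control was measured on 2 arrays. Baz2B-KO, a CRISPR/Cas9-edited Hap1 line with a small deletion in a coding exon of BAZ2B, was also measured on 2 arrays. Both lines grew in IMDM with FCS and were trypsinized, and no drug is named. The comparison sets 1 edited line against 1 parental line, so the loss of Baz2B and any other difference between the lines cannot be told apart. Whether the 2 arrays of each line stem from different cultures is not stated, so the spread between them may be technical. BAZ2B transcript was not analysed here.

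Values are log2 intensities from Affymetrix Human Gene 2.0 ST arrays after RMA, which corrects background, equalises the arrays and gives 1 value per probe set. Because probe sets differ in their probes, differences in transcript level were read only within a probe set, and the words brighter and dimmer tell the CCND2 probe sets apart by signal alone. Probe sets above 3.5 on at least 2 arrays were retained, and 11235 that were also named were tested together with limma. Of the blood lineage markers checked, 6 of 12 were named and 4 met this limit. Of 3 named fibroblast markers, DCN and LUM lay below it on all arrays and THY1 above it. THY1 gave 4.15 and 4.15 in the control and 4.02 and 4.03 in Baz2B-KO. The 4 named epithelial markers all met the limit. None of these 9 tested blood, fibroblast and epithelial markers passed the test, beside 0.668% of all tested probe sets. The blood marker CD33 is named only in the study's supplementary result table. CD33 gave 3.44 and 3.28 in the control and 3.81 and 3.83 in Baz2B-KO, and did not pass (limma adjusted p = 0.199). The median gap between replicate arrays was 0.148 for the controls and 0.115 for Baz2B-KO.

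LIN28A is an RNA-binding protein of embryonic and some tumour cells that binds let-7 precursors and blocks their maturation. Mature let-7 represses mRNAs that carry sites matching its seed, bases 2 to 8 from its 5′ end, and HMGA2, CCND2 and LIN28A itself are known targets. The zinc knuckles of LIN28A bind a GGAG motif in the terminal loop of most let-7 precursors, and terminal uridylyltransferases then tag the bound precursor for decay. The arrays measured transcripts that hold the precursor sequence, not mature let-7.

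The 5 mature let-7 sequences are shown because they define the group, with the shared seed in capitals. They came from RefSeq (GRCh38.p14) and are written 5′ to 3′.
let-7i-5p: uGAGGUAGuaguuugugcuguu
let-7e-5p: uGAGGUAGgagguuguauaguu
let-7a-5p, from MIRLET7A3: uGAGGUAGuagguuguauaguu
let-7g-5p: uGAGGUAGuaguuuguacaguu
let-7d-5p: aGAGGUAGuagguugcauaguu
All 5 share the seed GAGGUAG, which 14 of 2545 mature entries of the RefSeq table hold (0.55%). Pairs of these sequences differed at 1 to 6 of their 22 positions, all outside the seed. The fewest differences lay between let-7e and let-7a and the most between let-7i and let-7d.

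The hairpins from the same source are shown because they hold the motif that LIN28A reads. Capitals mark GGAG where it lies between the 2 mature arms, searched on the RNA strand only.
MIRLET7I (chr12:62603686-62603769, + strand): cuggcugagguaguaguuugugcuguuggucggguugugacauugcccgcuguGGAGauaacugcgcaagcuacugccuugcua
MIRLET7E (chr19:51692786-51692864, + strand): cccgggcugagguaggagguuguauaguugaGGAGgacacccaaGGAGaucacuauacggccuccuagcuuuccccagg
MIRLET7A3 (chr22:46112749-46112822, + strand): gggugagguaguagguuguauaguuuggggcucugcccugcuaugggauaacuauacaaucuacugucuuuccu
MIRLET7G (chr3:52268278-52268361, - strand): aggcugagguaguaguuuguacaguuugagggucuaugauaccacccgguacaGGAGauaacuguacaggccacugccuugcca
MIRLET7D (chr9:94178834-94178920, + strand): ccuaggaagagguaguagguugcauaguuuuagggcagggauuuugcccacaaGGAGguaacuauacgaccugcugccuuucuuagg
Between the arms, MIRLET7E held 2 copies, MIRLET7I, MIRLET7G and MIRLET7D held 1 copy, and MIRLET7A3 held 0. MIRLET7E has 1 further copy inside its mature arm. Of 739 hairpins in the table with both arms annotated, 60 held GGAG between them (8.12%), and so did 8 of 10 let-7 hairpins. A match in these letters is not a measured binding site.

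LIN28A transcript was lower in Baz2B-KO on both arrays, and it had the largest fall of the 11235 tested probe sets. Its probe set 16661155 gave 6.97 and 6.95 in the Hap1 control and 4.58 and 4.04 in Baz2B-KO. The controls lay close together, and both Baz2B-KO arrays lay far below them and above the intensity limit. The means were 6.96 ± 0.0082 and 4.31 ± 0.383 (SD, n = 2 each), a log2 difference (Baz2B-KO minus Hap1 control) of -2.65 with a standard error (SE) of 0.177, or 6.27-fold lower. The 2 arrays of Baz2B-KO disagreed on the depth of the fall. Their gap was 0.54, and only 1.56% of tested probe sets had a wider gap between the same 2 arrays, whereas 95.6% had a wider gap than LIN28A between the controls. With 1 Baz2B-KO array left out, the log2 difference lay at -2.92 or -2.38.

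Of the 9 probe sets, 2 were called by limma over all tested probe sets, LIN28A and the brighter probe set of CCND2, both lower. Over all 11235 the share called was 0.668% in either direction and 0.392% lower, and 0.276% were called higher. As the genes were listed with this contrast known, nothing is read from that count. Without control replicate 1 or without control replicate 2 no tested probe set was called, members included.

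**Figure D1:**
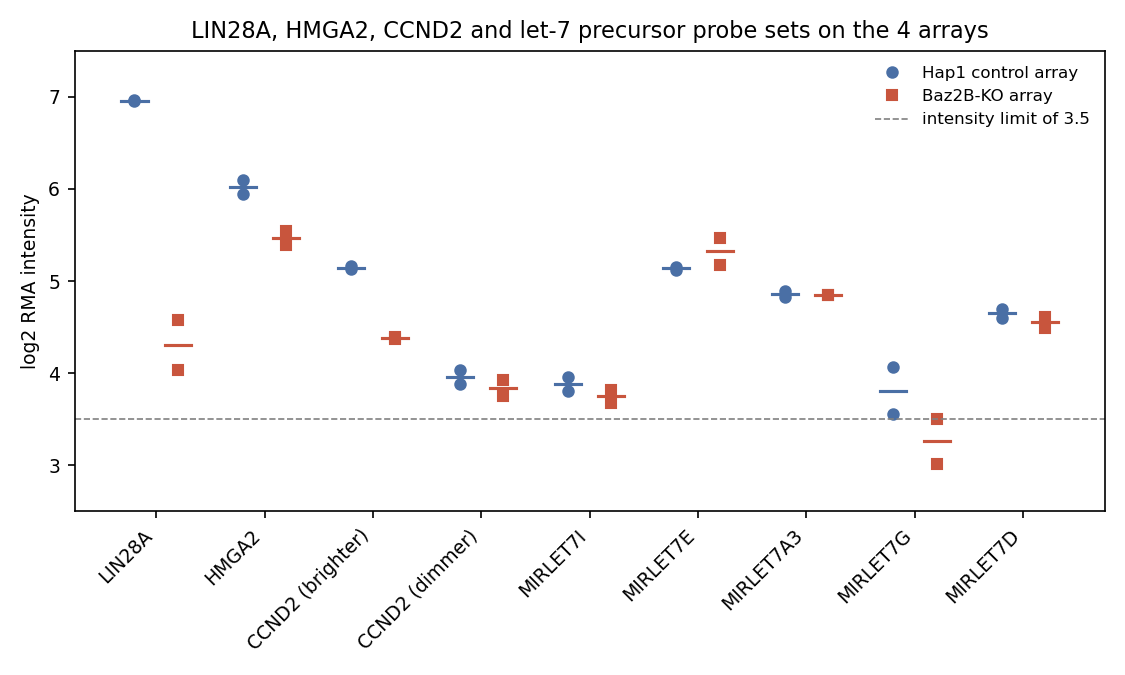
Log2 RMA intensity (vertical axis) of the 9 probe sets of LIN28A, HMGA2, CCND2 and 5 let-7 precursor genes, with 1 point per array, a short line at the mean of each line of cells and a dashed line at the limit of 3.5. LIN28A shows the widest step between the lines, from 6.96 to 4.31, and MIRLET7A3 almost none, from 4.86 to 4.85. Heights of different probe sets cannot be compared.

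**Figure D2:**
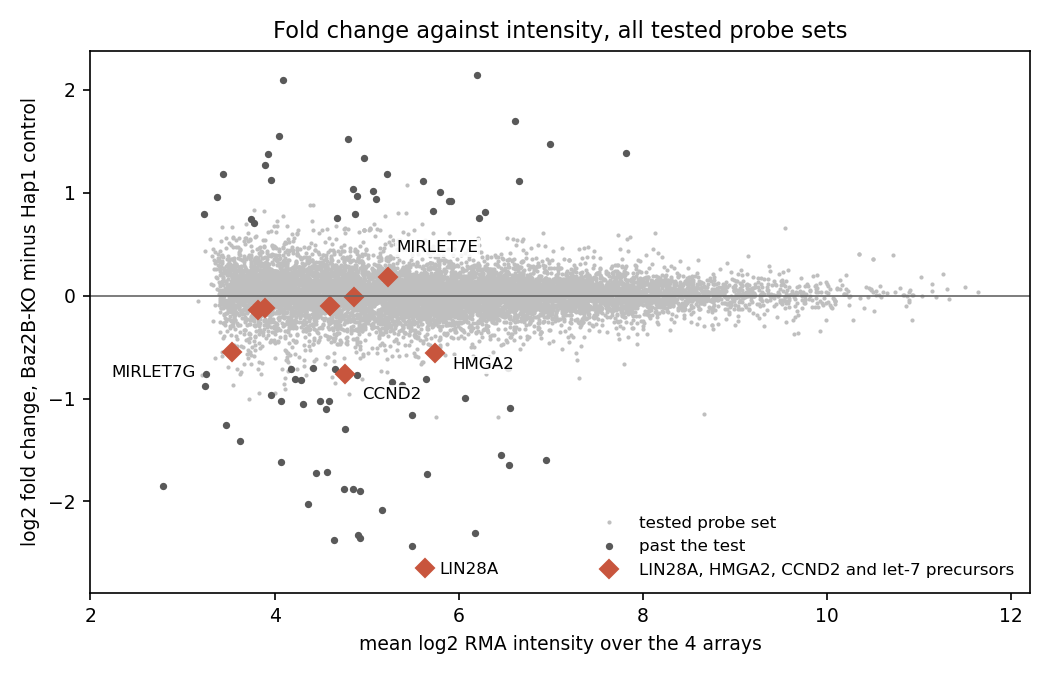
Log2 fold change (Baz2B-KO minus Hap1 control, vertical axis) against the mean log2 RMA intensity over the 4 arrays (horizontal axis) for 11235 tested probe sets, with the 9 described probe sets as diamonds and called ones as dark points. LIN28A lies lowest of all, at -2.65, and MIRLET7G, HMGA2 and the brighter CCND2 probe set lie between -0.55 and -0.76.

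HMGA2 encodes an AT-hook protein that bends DNA in embryonic and many tumour cells, and is the classic let-7 target. Its probe set 16753641 gave 6.10 and 5.95 in the control and 5.39 and 5.55 in Baz2B-KO. Both Baz2B-KO arrays lay below both controls, with replicate gaps of 0.153 and 0.154. The means were 6.02 ± 0.109 and 5.47 ± 0.109 (SD, n = 2 each), which is 1.47-fold lower (log2 difference -0.55, SE 0.120). HMGA2 was not among the called probe sets. RPSAP52, a transcribed pseudogene whose RefSeq span overlaps HMGA2, gave 4.40 and 4.61 in the control and 3.68 and 4.21 in Baz2B-KO. RPSAP52 thus had a log2 difference of -0.56 (SE 0.182), also without overlap of the lines, and did not pass (limma adjusted p = 0.356). Whether the 2 probe sets share signal was not tested. The means of HMGA1, the paralog of HMGA2, were 9.21 and 9.20.

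CCND2 encodes cyclin D2, which activates CDK4 and CDK6 on the way into S phase. The 2 probe sets that the platform annotation assigns to CCND2 disagreed. Which strand or transcript each of them reads was not checked. The brighter, 16746992, gave 5.14 and 5.16 in the control and 4.39 and 4.37 in Baz2B-KO. Both pairs of replicates lay close together, since 91.3% of tested probe sets had a wider control gap and 90.1% a wider Baz2B-KO gap. The means were 5.15 ± 0.016 and 4.38 ± 0.014 (SD, n = 2 each), which is 1.70-fold lower (log2 difference -0.76, SE 0.106). The dimmer, 16760142, gave 4.03 and 3.89 in the control and 3.76 and 3.92 in Baz2B-KO, so the lines overlapped. Its log2 difference was -0.12 (SE 0.121). Taken as the mean of both probe sets, CCND2 had a log2 difference of -0.44 and was not called. The call of the brighter probe set ended in 8 of 13 alternative settings, among them all retained probe sets, no intensity filter and any 1 array left out, while its log2 difference stayed between -0.77 and -0.75 with 1 array left out.

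The let-7 precursor probe sets showed no common direction. Of the 5, MIRLET7E had a log2 difference above 0, the other 4 had one below 0, and none was called. The value of MIRLET7A3 took both signs under other settings, from -0.04 to 0.02. MIRLET7G lies in an intron of WDR82, which encodes a histone methyltransferase subunit. Its probe set 16954759 gave 4.06 and 3.56 in the control and 3.02 and 3.501 in Baz2B-KO. The highest Baz2B-KO array thus fell just short of the lowest control. The means were 3.81 ± 0.360 and 3.26 ± 0.342 (SD, n = 2 each), a log2 difference of -0.55 (SE 0.212). Replicates of MIRLET7G were far apart, with a wider gap in only 3.45% of tested probe sets for the controls and 2.47% for Baz2B-KO. MIRLET7G also sat at the intensity limit, with 3 of 4 arrays above it and the array at 3.501 just inside. The probe set of its host WDR82 gave 8.64 and 8.63 in the control and 8.71 and 8.66 in Baz2B-KO, a log2 difference of 0.04 (SE 0.107).

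MIRLET7E, in a cluster with MIR99B and MIR125A, was the only one with both Baz2B-KO arrays above both controls. Its probe set 16864739 gave 5.13 and 5.16 in the control and 5.18 and 5.47 in Baz2B-KO. The Baz2B-KO mean was carried by replicate 2, and the log2 difference of 0.18 (SE 0.131) was 0.03 without that array. The neighbouring precursor MIR99B went the other way, with 5.60 and 5.74 in the control and 5.35 and 5.33 in Baz2B-KO. MIR99B had a log2 difference of -0.33 (SE 0.112) and did not pass (limma adjusted p = 0.389). MIR125A lay between 1.68 and 1.90 on the 4 arrays, below the limit, and SPACA6, whose span includes MIRLET7E, had a log2 difference of -0.08.

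MIRLET7A3 was the least changed of the retained let-7 precursors. Its probe set 16931321 gave 4.83 and 4.89 in the control and 4.85 and 4.85 in Baz2B-KO, so that both Baz2B-KO arrays lay between the controls. Its log2 difference was -0.01 (SE 0.107). MIRLET7D is transcribed with MIRLET7A1 and MIRLET7F1, and its probe set 17087006 gave 4.60 and 4.70 in the control and 4.61 and 4.49 in Baz2B-KO. The lines overlapped, with a log2 difference of -0.10 (SE 0.114). MIRLET7I, a single precursor gene near MON2, gave 3.96 and 3.81 in the control and 3.82 and 3.68 in Baz2B-KO from probe set 16753397. The lines overlapped here as well, with a log2 difference of -0.14 (SE 0.119).

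Over all 9 probe sets, the lines did not overlap in 5, with 4 lower and 1 higher in Baz2B-KO. Of the tested probe sets 15.9% had both Baz2B-KO arrays below both controls and 21.9% had both above. The middle 95% of all tested log2 differences lay between -0.40 and 0.40. For the 455 tested microRNA genes this range was wider, from -0.63 to 0.64, and MIRLET7G at -0.55 lay inside it.

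The 5 precursors are those named let-7 that met the intensity limit. Of 10 let-7 precursor genes with a named probe set, the other 5 (MIRLET7A1, MIRLET7A2, MIRLET7C, MIRLET7F1 and MIRLET7F2) lay between 1.09 and 3.29 on all arrays and were not tested. MIRLET7F1 gave 2.55 and 2.26 in the control and 1.29 and 1.58 in Baz2B-KO, all below the limit, where differences are least reliable. Its neighbour MIRLET7A1 gave 3.08 and 3.11 in the control and 3.29 and 2.65 in Baz2B-KO. MIR98, a further family member with the same seed, also met the limit. It gave 6.07 and 6.03 in the control and 5.83 and 5.89 in Baz2B-KO. The log2 difference of MIR98 was -0.19 (SE 0.108, limma adjusted p = 0.653), and it did not pass. How far probe sets of the family share signal was not tested.

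**Figure D3:**
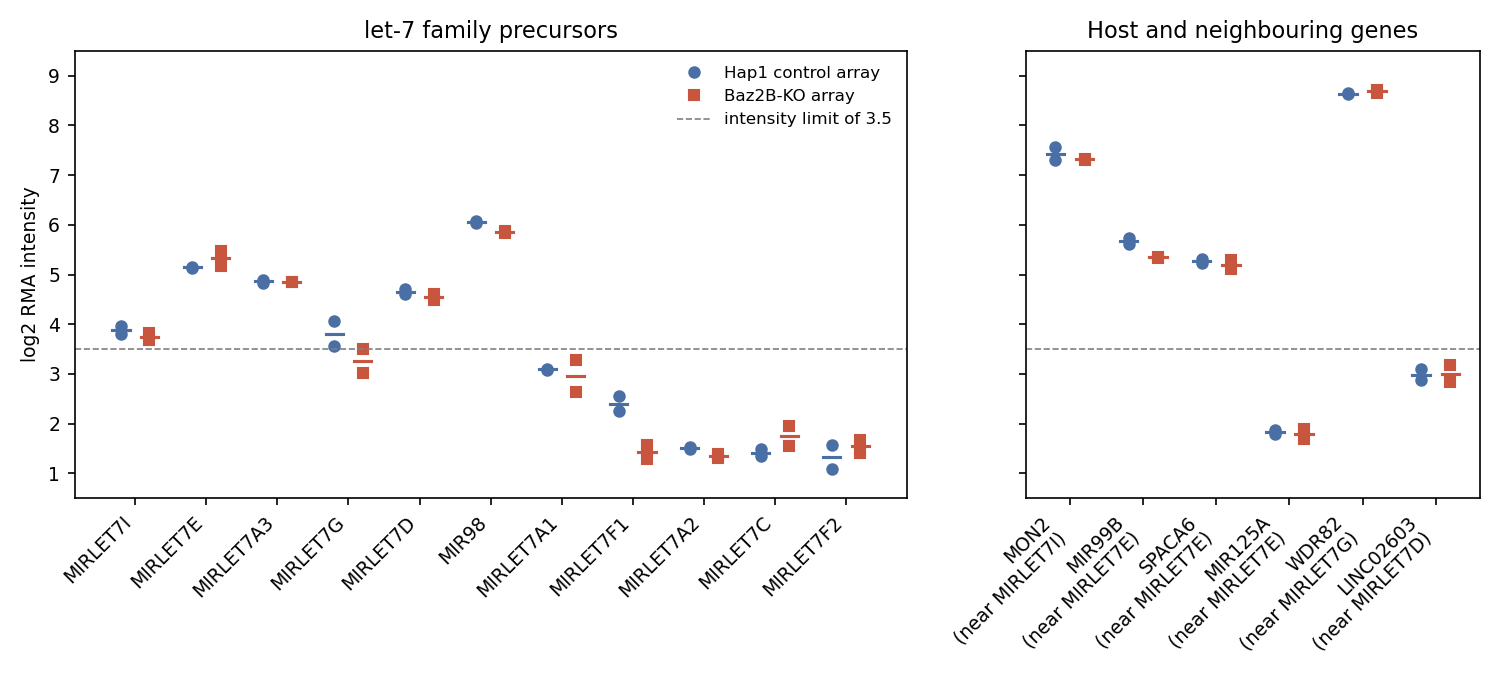
Log2 RMA intensity (vertical axis) of the let-7 family precursors (left) and of host or neighbouring genes of the 5 retained precursors (right), with 1 point per array, short lines at the means and a dashed line at 3.5. Of the let-7 precursors, 5 lie below the dashed line on all arrays, and WDR82, the host of MIRLET7G, is nearly level between the lines.

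Within 30 kb of the 8 genes, RefSeq places 14 further genes with a named probe set, and this window was chosen after the values of the members were seen. Of their 15 probe sets 10 were tested and none passed, which lies near the share of 0.668% called over all tested probe sets. DHDDS, next to LIN28A, had means of 6.78 in the control and 6.80 in Baz2B-KO. TIGAR, next to CCND2, had means of 6.61 and 6.77. Neither of these genes was lower in Baz2B-KO. In the same window RPSAP52 (-0.56) and MIR99B (-0.33) had both Baz2B-KO arrays below both controls, and TIGAR and WDR82 (0.04) had both above. The lines overlapped in the other tested probe sets of the window. Of the list of hosts and clustered genes of the let-7 family, 7 of 26 were tested, with 0 higher, 0 lower and 7 that did not pass. That too lies near the share over all tested probe sets, and the median log2 difference of the 7 was -0.11. MIR99A, next to MIRLET7C, had 0.03, with a sign that changed under quantile normalization (-0.022), without control replicate 2 (-0.028) and without KO replicate 1 (-0.093).

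LIN28B, the paralog that also blocks let-7 maturation, was measured by probe set 17011255 and gave 7.59 and 7.51 in the control and 7.37 and 7.19 in Baz2B-KO. Both Baz2B-KO arrays were lower, but LIN28B did not pass (log2 difference -0.27, SE 0.118, limma adjusted p = 0.528). Among 16 tested genes of let-7 processing, of 29 listed, 16 did not pass, with 0 higher and 0 lower. Over all tested probe sets 0.668% were called, and 0 of 16 lies near that share. The median log2 difference of the 16 was 0.11, against 0.02 over all tested probe sets. Above 0 lay 13 of the 16 and below it 3, where 45.2% of all tested probe sets lay below 0. As this list was written with earlier results of these data known, nothing is read from that. The largest positive values were 0.26 for DGCR8, the partner of DROSHA in the cut that releases the precursor, and 0.22 for the RNA-binding ubiquitin ligase gene TRIM25. DIS3L2, which degrades uridylated pre-let-7, had 0.19, and XPO5, which exports precursors from the nucleus, had 0.15. Next to LIN28B, the lowest value was -0.22 for HNRNPA1, which binds let-7 precursors and hinders their processing. TENT2 had -0.21, with both Baz2B-KO arrays below both controls. All adjusted p-values of this list were at least 0.511 from limma.

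Of 22 tested genes known as let-7 targets, of 36 listed besides the members, 1 was lower in Baz2B-KO, 0 were higher and 21 did not pass, beside 0.392% called lower and 0.276% called higher over all tested probe sets. The 1 that fell was THBS1, which encodes the matrix protein thrombospondin 1, at a log2 difference of -2.08 (SE 0.229, limma adjusted p = 0.010). THBS1 gave 5.90 and 6.52 in the control and 3.89 and 4.36 in Baz2B-KO, with a wide gap in both lines. It no longer passed when all retained probe sets were tested (adjusted p = 0.170) or without control replicate 1 (adjusted p = 0.081) or control replicate 2 (adjusted p = 0.166), all from limma. The fall of THBS1 was known when the list was written, so it is not independent evidence of a direction.

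None of the other targets passed. FIGN, a microtubule-severing protein gene, gave 5.98 and 6.09 in the control and 5.57 and 5.54 in Baz2B-KO, a log2 difference of -0.48 (limma adjusted p = 0.171). The 3 genes of the IGF2BP family, oncofetal mRNA-binding proteins, had log2 differences of -0.24 (IGF2BP1), -0.29 (IGF2BP2) and -0.26 (IGF2BP3), each with both Baz2B-KO arrays below both controls, and none passed. IGF1R, the receptor of insulin-like growth factors, had -0.33, ARID3A had -0.23 and MYC had -0.14. The largest positive values were 0.20 for PLAGL2 and 0.19 for HRAS. The IGF2BP genes, IGF1R, ARID3A and MYC were named after their values were seen. Of the 22, 13 had a negative and 9 a positive log2 difference, where 45.2% of all tested probe sets lay below 0. The median of the list was -0.10, against 0.02 over all tested probe sets. Both Baz2B-KO arrays lay below both controls for 10 of the 22 and above both for 5, beside 15.9% and 21.9% over all tested probe sets. As the whole list was written with earlier results of these data known, nothing is read from these counts or from the median. LIN28B is in this list, in the processing list and in the pluripotency list.

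TRIM71, an mRNA-binding ubiquitin ligase gene and one of the strongest let-7 targets, is named only in the study's supplementary result table, of which the rows of lowest p were held, and was looked up after its values were seen. It gave 6.46 and 6.12 in the control and 5.94 and 5.91 in Baz2B-KO, and did not pass (log2 difference -0.36, SE 0.139, limma adjusted p = 0.462).

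Of the D-type cyclins, CCND1 gave 4.68 and 4.82 in the control and 4.49 and 4.51 in Baz2B-KO (log2 difference -0.25, limma adjusted p = 0.531), and CCND3 had a log2 difference of 0.16 with overlapping lines. Of the partner kinases, CDK4 had -0.02 and CDK6 had 0.17. Among 16 tested genes of the D-cyclin and G1 list, of 22 listed, 0 were higher, 0 were lower and 16 did not pass. That lies near the share of 0.668% called over all tested probe sets, and the median log2 difference of the 16 was 0.00. CDKN2A, an inhibitor of CDK4 and CDK6, had -0.19, and the retinoblastoma gene RB1 had 0.11.

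LIN28A is often grouped with pluripotency factors, since with POU5F1, SOX2 and NANOG it can reprogram somatic cells. Of 20 named genes of that list 13 were tested, 0 were higher, 0 were lower and 13 did not pass. That lies near the share of 0.668% called over all tested probe sets, and the median log2 difference of the 13 was -0.01. SOX2 gave 8.44 and 8.39 in the control and 8.20 and 8.18 in Baz2B-KO, a log2 difference of -0.23 (limma adjusted p = 0.573). LEFTY1, a secreted Nodal inhibitor, had the highest value of the 13 tested genes at 0.40, followed by FOXD3 at 0.13. POU5F1 and NANOG lay below the intensity limit on all 4 arrays. DPPA4 (8.83 and 8.90 as means) and DNMT3B (6.07 and 6.08 as means) were nearly level.

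**Figure D4:**
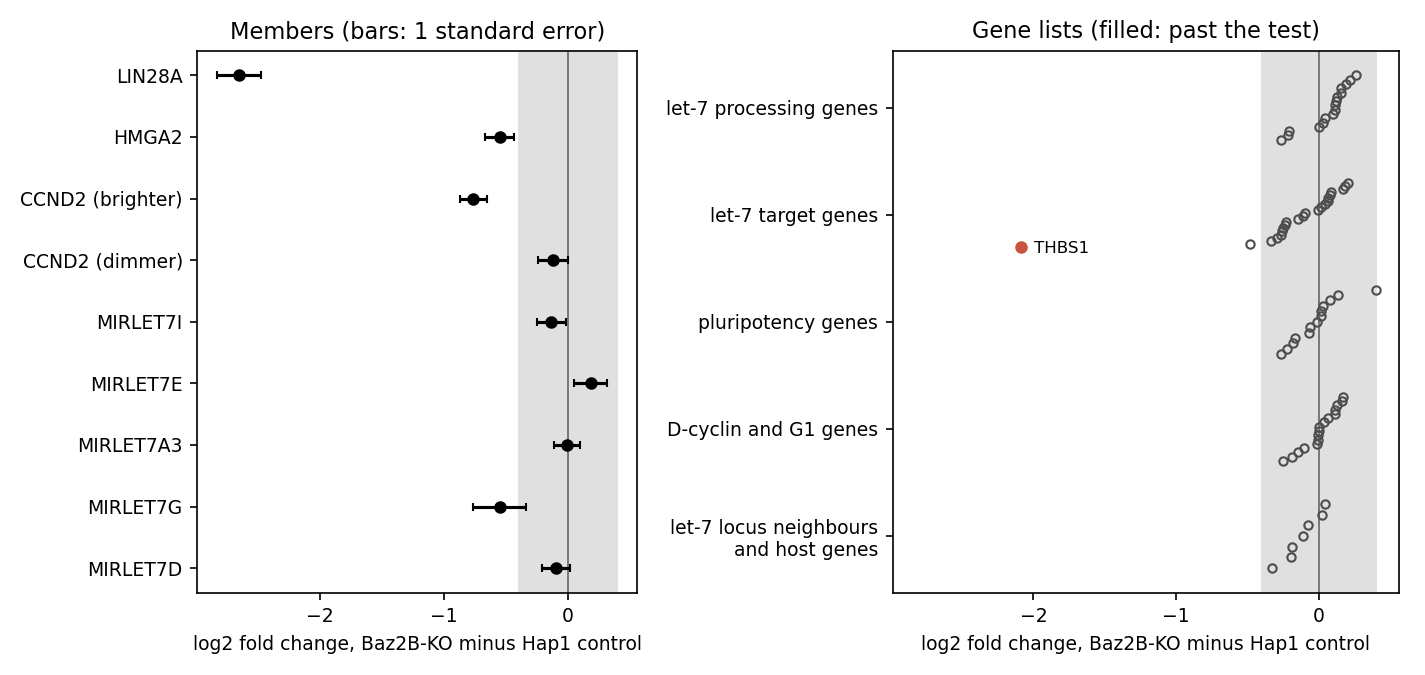
Log2 fold change (Baz2B-KO minus Hap1 control, horizontal axis) of the 9 probe sets with 1 standard error (left) and of the tested genes of 5 lists, 1 point per gene and filled where past the limma test (right). The grey band spans the middle 95% of all tested probe sets, from -0.40 to 0.40, and THBS1 at -2.08 is the only filled point.

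The genes whose profile over the 4 arrays lay nearest to that of LIN28A were CDK14, PI15, TMEM35A, EPHA3 and AMBN. Likeness was the Euclidean distance between log2 values centred on each probe set's mean, and it ranged from 0.341 for CDK14 to 0.795 for AMBN. CDK14, a Wnt-related kinase gene, gave 6.11 and 6.10 in the control and 3.89 and 3.60 in Baz2B-KO, so that, as for LIN28A, the controls were close and replicate 2 of Baz2B-KO was lower. PI15, a protease inhibitor gene, showed the same order in Baz2B-KO, with 5.17 and 4.89. EPHA3, an ephrin receptor gene, differed from LIN28A in having both Baz2B-KO arrays at 4.28. TMEM35A gave 6.04 and 5.62 in the control and 3.61 and 3.29 in Baz2B-KO, with controls further apart than those of LIN28A. Replicate 2 of Baz2B-KO lay below the intensity limit of 3.5 for TMEM35A. AMBN gave 5.93 and 6.21 in the control and 3.52 and 3.97 in Baz2B-KO, so that here replicate 2 of Baz2B-KO was the higher. The lowest Baz2B-KO arrays of AMBN (3.52) and CDK14 (3.60) lay just above the limit, and those of PI15 and EPHA3 further above it. Near the limit RMA compresses differences. The size of the step between the lines weighs most in this distance, so that genes with a fall near that of LIN28A come first, and the 5 genes held ranks 2 to 6 of the falls.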

How the data were processed

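Total RNA of 2 Hap1 control and 2 Baz2B-KO samples was hybridised to Human Gene 2.0 ST arrays. The authors deposited log2 intensities of 53617 probe sets, made with oligo and RMA, whose versions are not given in the sources used here. Array medians lay between 3.53 and 3.55. RMA compresses differences near background, and with 4 arrays precision is limited.

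After the study's methods, probe sets above 3.5 on at least 2 arrays were kept (27722). Of these, 11235 carry 1 gene in the platform annotation and were tested with limma 3.58.1 (R 4.3.3, lmFit and eBayes, no covariates), with Benjamini-Hochberg adjustment over all of them at a threshold of 0.05. The code was tested on simulated data. From the study's supplementary result table only gene names were taken, and its fold changes and p-values were not used. A probe set named there alone was adjusted as 1 added to those tested.

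The members and lists were chosen with earlier results of these data known. By rule the text names all members, LIN28B, list genes that passed, the 2 largest rises and falls of each list, hosts or clustered genes of the precursors and the 5 genes nearest to LIN28A. Other names were chosen after seeing values. Outside the members, the probe set of highest mean stands for a gene. Sequences came from RefSeq, where all 5 let-7 members were found. Alternatives were other intensity filters, all retained probe sets, trended or robust eBayes, a replicate block, 2 scalings, averaging by gene and each array left out. Figures were drawn with matplotlib 3.10.9.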

Additional observations from a re-analysis of the deposited data

How the results depend on the processing

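The number of called probe sets was 75, and it was 41 with no intensity filter, 26 when all retained probe sets were tested, 38 with the replicate block and between 0 and 42 with 1 array left out. Of the members 2 probe sets were called, and this was 1, LIN28A, with no intensity filter, with all retained probe sets, with the replicate block and with probe sets averaged by gene, and 0 to 1 with 1 array left out. Without either control, limma called 0 probe sets (lowest adjusted p = 0.0542 and 0.0564), with 935 and 1419 probe sets under 0.05 before adjustment. The let-7 target list had 0 calls with all retained probe sets and 0 to 1 with 1 array left out. The counts of the other 4 lists stayed at 0 in all 13 alternatives.

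The log2 difference of LIN28A lay between -2.92 and -2.38 in all 13 alternatives and was called in 11. That of HMGA2 lay between -0.63 and -0.48 and was called in 0. The brighter probe set of CCND2 lay between -0.77 and -0.75 in the settings that kept it apart from the dimmer one, and was called in 5. Averaged by gene, the 2 CCND2 probe sets had -0.44. MIRLET7G lay between -0.81 and -0.30 and MIRLET7E between 0.03 and 0.33. MIRLET7A3 took both signs, from -0.04 to 0.02. MIR99A, a precursor near MIRLET7C with a log2 difference of 0.03, changed sign to -0.022 with quantile normalization and lay between -0.093 and 0.144 with 1 array left out. The stricter limit of 4 left no value for MIRLET7G, MIRLET7I and the dimmer CCND2 probe set. With the replicate block LIN28A was called, and the brighter CCND2 probe set and HMGA2 were not. The samples share only a number: the deviations of same-numbered arrays from their group means correlated at 0.158, with 2 numbers.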

Other observations

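Some listed genes are named only by the study's supplementary result table, whose held rows are those of lowest p, so a low p is what gave them a name. CDKN1A, which encodes the CDK inhibitor p21, gave 4.92 and 4.85 in the Hap1 control and 5.49 and 5.57 in Baz2B-KO, a log2 difference of 0.65 (SE 0.109, limma adjusted p = 0.065). It missed the threshold. CDKN2B, another inhibitor of CDK4 and CDK6, gave 3.74 and 3.39 in the control and 3.93 and 4.08 in Baz2B-KO (limma adjusted p = 0.371).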
